A study of Drosophila melanogaster with 12 samples.

Results

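The genes described here are 257 fly genes that carry a number in place of a name in the deposited RNA table (CG followed by digits), whose RNA was lower in the wild-type wing after puparium formation than before it, and whose RNA stood higher when the ecdysone receptor EcR was reduced. The table lists 15240 genes, and 3410 with a CG number reach a mean of 10 normalized counts over the 8 libraries; the 257 come from these. On group means of log2(normalized count + 1), the change in wild type (+6 h minus -6 h, called S below) had to be at most -1, and the difference at +6 h (EcR-RNAi minus wild type, called P below) at least 0.8. The genes were thus chosen by S and P, measured in 6 of the 8 libraries, and by the mean over all 8. S and P are given as descriptions, with no test. Of the 257 genes, 54 have since received a name in the RefSeq annotation, and that name is used where it exists.

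RNA came from wings of female Drosophila melanogaster kept at 25 °C, with 4 groups and 2 libraries in each. The EcR-RNAi groups (+6 h and -6 h) carry yw on the first chromosome. They also have Vg-GAL4, UAS-Flp and the cassette Tub>>CD2>>GAL4, together with UAS-GFP over UAS-EcR-RNAi[104]. Here Gal4 driven by vestigial sequences, which are active in the developing wing, switches on Flp recombinase, and Flp removes the CD2 stop cassette so that the tubulin promoter then drives Gal4. The WT groups (+6 h and -6 h) have +/+ on each chromosome, so transgenes and background differ together with EcR. The -6 h wings came from wandering third-instar larvae and the +6 h wings from animals staged at the white prepupa. Whether replicates were separate animals or cultures is not labelled, so p-values measure the spread between these libraries, which may be technical. In whole-wing RNA, fewer cells of a type and less RNA per cell cannot be told apart.

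Ecdysone is the steroid hormone that times insect moults and metamorphosis. Its receptor is a pair of nuclear receptors, EcR and Usp, that binds DNA and can raise or lower the transcription of nearby genes. Around puparium formation the wing imaginal disc stops growing as a larval sac, everts and flattens, and its epithelium starts to make pupal cuticle. EcR itself was at 2201 and 2081 normalized counts in EcR-RNAi wings at +6 h and 1634 and 1307 at -6 h, against 5764 and 6852 in WT wings at +6 h and 2194 and 1924 at -6 h. The target of the RNAi was thus lower in both EcR-RNAi libraries than in both WT libraries at each stage.

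As depth, between 6444939 and 10016236 reads were recovered per library, and replicates of a group correlated across genes at r = 0.982 to 0.991. The 7 wing markers summed to between 14914.5 and 20418 normalized counts in every library. Gut and fat body markers stood apart in EcR-RNAi at -6 h. Of 6 gut markers, Npc1b and Mal-A1 were at 0 in every library, and the list summed to 1.23 and 0 (EcR-RNAi, +6 h), 1375 and 371 (EcR-RNAi, -6 h), 2.98 and 4.20 (WT, +6 h) and 3.87 and 3.84 (WT, -6 h). The 6 fat body markers in the table summed to 1242.5 and 1500.4 (EcR-RNAi, +6 h), 2260.4 and 4873 (EcR-RNAi, -6 h), 1051 and 893 (WT, +6 h) and 939 and 482 (WT, -6 h). Of the gut markers, 4 were tested, and all 4 were higher in EcR-RNAi at -6 h and fell with stage in EcR-RNAi. Of the 6 fat body markers, 4 were higher at -6 h and 1 fell with stage. At +6 h, Lsp1beta was at 178 and 194 in EcR-RNAi against 26.8 and 18.9 in WT. Lsp2 was at 162 and 216 against 47.7 and 54.55, and Lsp1alpha at 40.6 and 35.5 against 8.95 and 8.39. Fbp1 and Fbp2 were higher in EcR-RNAi by a smaller margin. Cg25C, the largest of the list at that stage, overlapped between genotypes. Of 7 myoblast markers, 3 were higher at -6 h and 3 rose with stage in EcR-RNAi. Every comparison below that uses the EcR-RNAi libraries at -6 h holds that RNA, and its part in the results was not tested, apart from values without each of these libraries. P uses EcR-RNAi at +6 h and so holds the fat body RNA of that stage. The part of this RNA in P and in the choice of the genes was not tested.

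The median S of the 257 genes was -1.50, with quartiles of -1.84 and -1.25 and a lowest value of -5.24. Median P was 1.17, with quartiles of 0.97 and 1.52 and a highest value of 7.78. In comparison, the medians over all 7775 genes tested were -0.01 for S and 0.00 for P. Of 381 CG-numbered genes with S at most -1, these 257 make up 67.5%, and the other 124 had a median P of 0.55. At the S threshold, Sf3b3 (-1) and CG7987 (-1.001) lay just inside, and CG17187 (-0.99) and CG7408 (-0.99) just outside. At the P threshold, CG7987 and CG6565 (0.804 each) lay just inside, and CG5524 (0.799) and CG7338 (0.796) just under it.

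The genes differed in where EcR-RNAi at +6 h stood against WT at -6 h, which is the sum of S and P and so was also bounded by the choice. For 166 of the 257 genes the gap was within 0.5 log2 units, for 72 EcR-RNAi was more than 0.5 below, and for 19 more than 0.5 above. The gap ran from -3.34 to 6.72, with a median of -0.28. Most of the genes were moderately counted: the mean over 8 libraries had a median of 102 normalized counts, and 72 genes had a mean under 50.

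**Figure D1:**
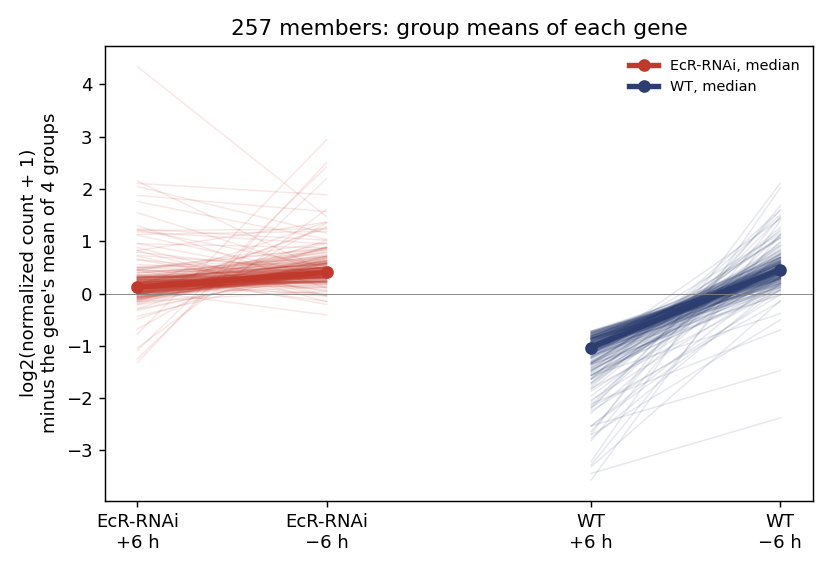
Group means of log2(normalized count + 1) for each of the 257 genes, centred on the gene's own mean of 4 groups; thin lines are genes and thick lines the median of each genotype. In EcR-RNAi the median line is nearly level between the stages (median change -0.28), and in WT it is lower at +6 h (median change -1.50), which the choice of the genes fixed.

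The EcR-RNAi libraries at -6 h entered neither S nor P, and took part in the choice only through the mean over 8 libraries. Some genes of low counts, CG13678 among them, reach a mean of 10 only with these libraries counted. Set against WT at the same stage, the EcR-RNAi libraries at -6 h give the first test below. It also shares the WT libraries at -6 h with S, so it is not independent of the choice. Before puparium formation most of the genes differed little between genotypes. The median difference was -0.05, against 0.01 over all genes tested, and 207 of 257 genes lay within 0.5 log2 units. With limma across all 7775 genes and a Benjamini-Hochberg adjusted p (padj) under 0.05, 9 of the 257 were higher and 3 lower in EcR-RNAi at -6 h. Over all genes tested the shares called were 7.51% higher and 3.36% lower. In the authors' deposited table, 10 of the 257 were higher and 4 lower at an adjusted p under 0.05. With EcR-RNAi -6 h replicate 2 left out, 4 were called higher and 2 lower, and with replicate 1 left out, 10 higher and 6 lower. With WT -6 h replicate 1 or 2 left out, 5 or 3 were higher, and with EcR-RNAi +6 h replicate 2 left out, 6. With either WT +6 h library left out, 6 were lower.

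Of the 3 genes lower in EcR-RNAi before puparium formation, CG32447 was at 642 and 635 normalized counts in EcR-RNAi wings at +6 h and 1174 and 1209 at -6 h, against 250.5 and 314 in WT wings at +6 h and 2719 and 2514 at -6 h. Here the replicates lie close together and the 4 groups do not overlap. The difference at -6 h was -1.13 ± 0.12, limma padj = 0.000158. CG1607 followed the same order of groups, at 653 and 632 normalized counts in EcR-RNAi wings at +6 h and 1177.5 and 952 at -6 h, against 245 and 262 in WT wings at +6 h and 2174 and 2316 at -6 h. Its difference at -6 h was -1.08 ± 0.12, limma padj = 0.000191. These 2 calls held in all 18 alternatives, and both genes also fell with stage in EcR-RNAi (-0.90 ± 0.12, limma padj = 0.000382 and -0.72 ± 0.12, limma padj = 0.00167). For CG10005, with 159 and 156 normalized counts in EcR-RNAi wings at +6 h and 231 and 218 at -6 h, against 49.2 and 39.9 in WT wings at +6 h and 331 and 398 at -6 h, the difference was -0.69 ± 0.16, limma padj = 0.0166. The call of CG10005 ended without replicate 2 of WT at -6 h (-0.56, padj = 0.159) and without replicate 2 of EcR-RNAi at -6 h (-0.65, padj = 0.0958). All 3 genes thus stood at intermediate levels in EcR-RNAi at both stages, between the WT levels of the larval and the prepupal wing.

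The 9 genes that were higher at -6 h include CG4594, which WT wings hardly showed. Values were 36.9 and 32.5 normalized counts in EcR-RNAi wings at +6 h and 28.3 and 31.1 at -6 h, against 0 and 1.05 in WT wings at +6 h and 2.90 and 1.28 at -6 h. Both EcR-RNAi groups lie above both WT groups, and the difference at -6 h was 3.36 ± 0.57, limma padj = 0.00289, a call that held in all 18 alternatives. Its S rests on 5 reads at -6 h and 1 read at +6 h in WT (a ratio of 3.13 for -6 h over +6 h, 95% counting interval 0.35 to 148), so the wild-type decrease of this gene was not detectable at this depth. CG15093 (difference 1.03 ± 0.16, limma padj = 0.00176) and CG8547 (0.88 ± 0.15, limma padj = 0.00343) also held in all 18. CG15093 was at 423 and 398.5 normalized counts in EcR-RNAi wings at +6 h and 580.0 and 618 at -6 h, against 44.7 and 34.6 in WT wings at +6 h and 329 and 259 at -6 h. For CG8547 the values were 786 and 745 (EcR-RNAi, +6 h), 1073 and 930.3 (EcR-RNAi, -6 h), 250.5 and 179 (WT, +6 h) and 573 and 517 (WT, -6 h). In both, EcR-RNAi libraries at either stage exceeded every WT library. CG15611 was at 52.9 and 48.3 (EcR-RNAi, +6 h), 128 and 129 (EcR-RNAi, -6 h), 19.4 and 17.8 (WT, +6 h) and 66.8 and 53.8 (WT, -6 h), with a difference of 1.08 ± 0.22, limma padj = 0.00815. CG4880 was at 159.9 and 174 (EcR-RNAi, +6 h), 283 and 249.8 (EcR-RNAi, -6 h), 56.7 and 59.8 (WT, +6 h) and 183 and 181 (WT, -6 h), with a difference of 0.54 ± 0.14, limma padj = 0.0325. In both genes EcR-RNAi at -6 h is the highest group. The -6 h call of CG15611 ended without replicate 2 of WT (0.93, padj = 0.0796) or of EcR-RNAi (1.08, padj = 0.0561) at -6 h. That of CG4880 ended in 8 of 18 alternatives, at padj up to 0.153, among them the fits with EcR-RNAi -6 h replicate 1 (0.45) or 2 (0.63), WT -6 h replicate 1 (0.55) or 2 (0.54), or either EcR-RNAi +6 h library (0.54) left out. With stage in EcR-RNAi, CG15611 (-1.32 ± 0.22, limma padj = 0.00172), CG15093 (-0.54 ± 0.16, limma padj = 0.0419) and CG4880 (-0.67 ± 0.14, limma padj = 0.00827) fell. The stage call of CG15093 ended with any 1 EcR-RNAi library left out (-0.50 to -0.59, padj from 0.081 to 0.207), and that of CG4880 with EcR-RNAi -6 h replicate 1 (-0.58) or +6 h replicate 1 (-0.61) left out. CG13024 (1.04 ± 0.28, limma padj = 0.0379) and CG7294 (1.71 ± 0.47, limma padj = 0.0402) were called with little margin, CG13024 at 73.8 and 116 (EcR-RNAi, +6 h), 71.2 and 89.3 (EcR-RNAi, -6 h), 7.46 and 7.34 (WT, +6 h) and 38.7 and 37.8 (WT, -6 h). Their calls ended without replicate 2 of EcR-RNAi at -6 h (0.88, padj = 0.24, and 1.36, padj = 0.285), with WT -6 h replicate 1 left out (1.06 and 1.68) and with replicate 2 left out (1.02 and 1.74). They also ended with EcR-RNAi +6 h replicate 2 left out (1.04, padj = 0.0505, and 1.71, padj = 0.0842), and for CG7294 with replicate 1 left out there (padj = 0.0857). CG7294 was at 55.4 and 47.4 normalized counts in EcR-RNAi wings at +6 h and 32.2 and 52.4 at -6 h, against 0 and 1.05 in WT wings at +6 h and 11.6 and 12.2 at -6 h, so its P rests on 1 read in WT at +6 h (a ratio of 82.7, 95% counting interval 14.5 to 3300.3).

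Within EcR-RNAi wings the stage change (+6 h minus -6 h) was the second test. It shares the EcR-RNAi libraries at +6 h with P, so it is not independent of the choice either. Of the 257, 30 fell and 2 rose with stage in EcR-RNAi, and 225 were not called. Over all genes tested the shares called were 3.88% lower and 12.1% higher. The median change was -0.28, against 0.00 over all genes tested and -0.36 in the 124 other CG-numbered genes with S at most -1. The authors' deposited table had 24 of the 257 lower and 2 higher at +6 h. Upper-quartile scaling gave 53 lower and quantile scaling 59, and these scalings moved the median of all genes by -0.10 and -0.13 in this comparison. With EcR-RNAi +6 h replicate 1 or 2 left out, 13 or 17 were lower, and with EcR-RNAi -6 h replicate 1 left out, 18. The number that rose was 4 with either WT +6 h library left out, 1 with either WT -6 h library or EcR-RNAi -6 h replicate 1 left out, and 0 with either EcR-RNAi +6 h library left out.

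**Figure D2:**
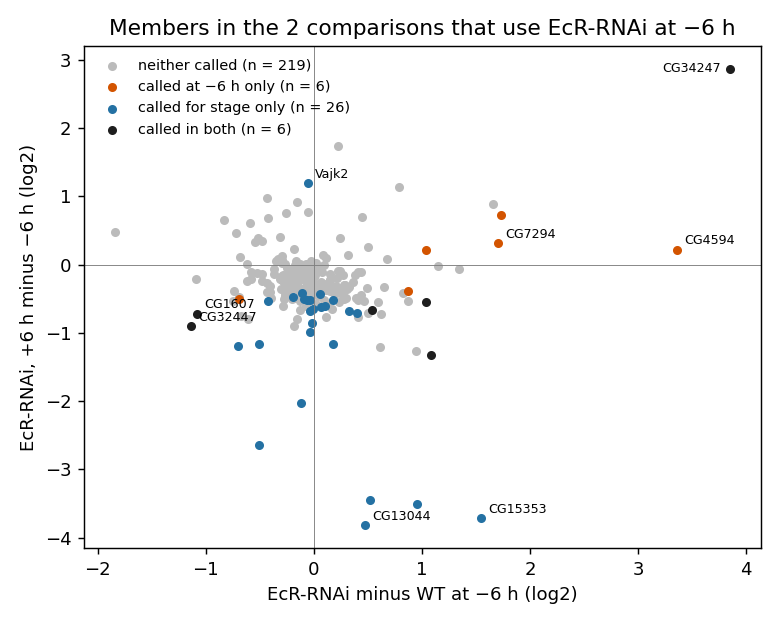
Each point is 1 of the 257 genes; the x axis is the log2 difference EcR-RNAi minus WT at -6 h and the y axis the log2 difference +6 h minus -6 h in EcR-RNAi. Of the genes, 219 passed neither test, 26 passed the stage test alone, 6 the -6 h test alone and 6 both.

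Of the 10 genes with the lowest S, 8 also fell with stage in EcR-RNAi. CG13044 was at 38.1 and 20.7 normalized counts in EcR-RNAi wings at +6 h and 406.5 and 415 at -6 h, against 7.46 and 6.29 in WT wings at +6 h and 332 and 262 at -6 h. S was -5.24, and the stage change in EcR-RNAi was -3.82 ± 0.27, limma padj = 4.55e-06. CG15353 stood at 23.4 and 34.5 (EcR-RNAi, +6 h), 397 and 376 (EcR-RNAi, -6 h), 1.49 and 6.29 (WT, +6 h) and 139 and 124 (WT, -6 h), with S at -4.96 and a change of -3.72 ± 0.45, limma padj = 0.000746 in EcR-RNAi. At -6 h, CG15353 differed between genotypes by 1.55 ± 0.45, limma padj = 0.0659, which did not pass. The authors' deposited comparison had it higher in EcR-RNAi at that stage (their adjusted p = 2.34e-07). In both CG13044 and CG15353 the EcR-RNAi libraries at +6 h lie between the WT libraries of the stages, nearer to those at +6 h on a linear scale. CG11370 was at 17.2 and 13.8 normalized counts in EcR-RNAi wings at +6 h and 159.9 and 218 at -6 h, against 2.98 and 5.25 in WT wings at +6 h and 107 and 85.2 at -6 h, with a stage change of -3.51 ± 0.32, limma padj = 2.64e-05 in EcR-RNAi. CG14566 fell too (-2.03 ± 0.28, limma padj = 0.000477), with 23.4 and 24.7 normalized counts in EcR-RNAi wings at +6 h and 94.5 and 108 at -6 h, against 10.4 and 6.29 in WT wings at +6 h and 111 and 108 at -6 h. In these 2 genes as well, EcR-RNAi at +6 h stood between both stages of WT. CG13678 had no read in WT at +6 h, where WT at -6 h was at least 10.2-fold higher, and 3 reads in EcR-RNAi at +6 h. No fold between genotypes is given for it, and its EcR-RNAi ratio of -6 h over +6 h was 16.8 (95% counting interval 5.49 to 83.7). CG13678 reached the mean threshold only through its EcR-RNAi counts at -6 h, the high side of this ratio, so its fall is not independent of the choice. All 5 of these stage calls held in 18 of 18 alternatives. CG5397 (-2.65 ± 0.72, limma padj = 0.0342) did not, with 3.69 and 9.87 (EcR-RNAi, +6 h), 45.8 and 41.8 (EcR-RNAi, -6 h), 0 and 4.20 (WT, +6 h) and 59.0 and 66.0 (WT, -6 h). Its call ended without any 1 of the 4 EcR-RNAi libraries (padj = 0.236 and a change of -2.04 without replicate 1 at +6 h), and without either WT library at -6 h (-2.65). The 2 of the 10 that were not called are CG13064, described below, and CG42514, at 51.7 and 57.2 (EcR-RNAi, +6 h), 54.6 and 76.2 (EcR-RNAi, -6 h), 5.96 and 11.5 (WT, +6 h) and 103 and 79.4 (WT, -6 h). Sqor, described below, and CG32447, described above, are the others of the 10. Outside the 10, CG11275 was at 149 and 140.1 (EcR-RNAi, +6 h), 248 and 278 (EcR-RNAi, -6 h), 38.8 and 25.2 (WT, +6 h) and 287.5 and 245 (WT, -6 h), with a change of -0.86 ± 0.20, limma padj = 0.0135. That call ended with EcR-RNAi -6 h replicate 2 (-0.77, padj = 0.061) or EcR-RNAi +6 h replicate 1 (-0.90, padj = 0.0743) or 2 (-0.81, padj = 0.101) left out.

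Genes with names that point to the cell surface, the cuticle or the matrix made up 6 of the 257. The gene nw (narrow) encodes a secreted lectin-like protein that shapes the wing, and it had the largest mean count of the 257 (counts are not scaled by gene length), at 8501 and 7786 normalized counts in EcR-RNAi wings at +6 h and 15708.5 and 16666 at -6 h, against 2504 and 2864 in WT wings at +6 h and 17858.5 and 15340.5 at -6 h. The EcR-RNAi libraries at +6 h lay between those of WT at +6 h and at -6 h, and the stage change in EcR-RNAi was -0.99 ± 0.13, limma padj = 0.000404. The gene peg (pegasus) encodes a secreted protein that helps Wingless spread in the wing disc. It was at 1215 and 1475 normalized counts in EcR-RNAi wings at +6 h and 3255 and 2784 at -6 h, against 583 and 879 in WT wings at +6 h and 4515 and 4055.5 at -6 h, with a change of -1.17 ± 0.19, limma padj = 0.00294 in EcR-RNAi. Both calls held in all 18 alternatives. Vajk2 and Vajk3 are neighbours that encode cuticle proteins of the Vajk family. Vajk2 was at 278 and 283 normalized counts in EcR-RNAi wings at +6 h and 107 and 138 at -6 h, against 37.3 and 37.8 in WT wings at +6 h and 176 and 91.0 at -6 h. It rose with stage in EcR-RNAi (1.197 ± 0.27, limma padj = 0.0151), while in WT it stood lower at +6 h in both libraries. The call ended without replicate 1 of EcR-RNAi at -6 h (1.01, padj = 0.0552) and with EcR-RNAi +6 h replicate 1 or 2 left out (1.21 and 1.18, padj = 0.0969 and 0.101). Vajk3 was at 59.0 and 63.1 normalized counts in EcR-RNAi wings at +6 h and 40.0 and 39.3 at -6 h, against 14.9 and 14.7 in WT wings at +6 h and 78.4 and 46.1 at -6 h, with a change of 0.61 ± 0.29, limma padj = 0.188, which did not pass. Ae2, an anion exchanger gene, and Prip, an aquaporin gene, had S of -2.58 and -1.52 and P of 1.42 and 0.83. Others among the 8 genes with the largest mean counts were CG9705, CG42673, CG17211, Nph and Sf3b3, a splicing factor gene. CG9705 was at 3650.0 and 3253 (EcR-RNAi, +6 h), 4694 and 4034 (EcR-RNAi, -6 h), 1766 and 1864 (WT, +6 h) and 4317 and 4148 (WT, -6 h), and neither test called it. CG42673 (-0.42 ± 0.12, limma padj = 0.0325) and CG17211 (-0.54 ± 0.15, limma padj = 0.0391) fell with stage in EcR-RNAi, and each call ended in 7 of 18 alternatives, at padj up to 0.182 and 0.226. For CG42673 these include the fits with EcR-RNAi -6 h replicate 1 (-0.36), either EcR-RNAi +6 h library (-0.45 and -0.40) or either WT +6 h library (-0.42) left out. For CG17211 they include EcR-RNAi -6 h replicate 1 (-0.42), either EcR-RNAi +6 h library (-0.62 and -0.46) and either WT -6 h library (-0.54).

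**Figure D3:**
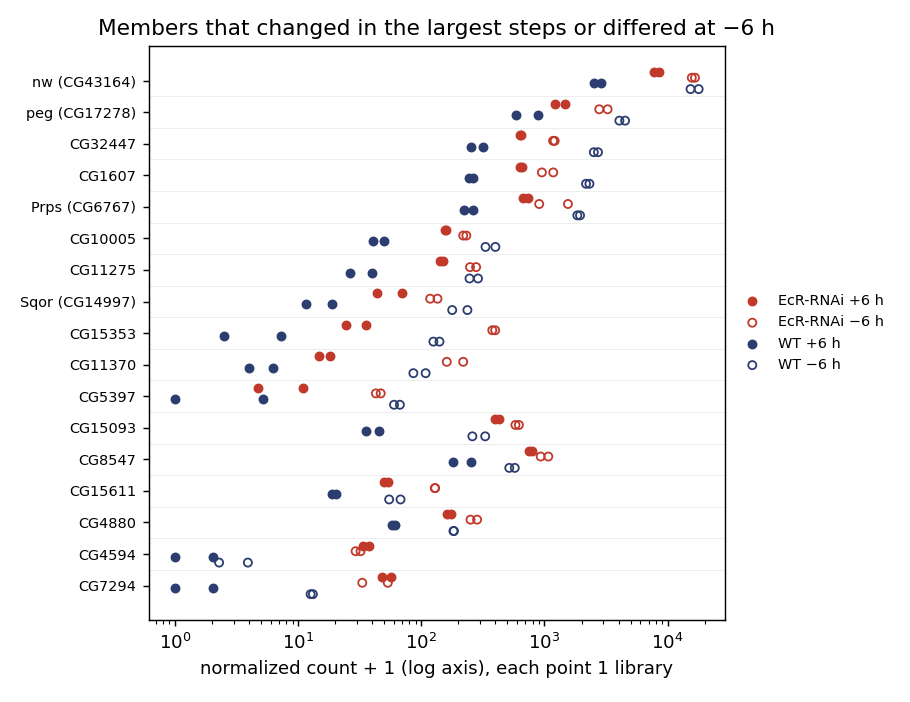
Normalized counts + 1 on a log axis for 17 of the genes, with a point for each library. From nw down to Sqor (CG14997), filled red points (EcR-RNAi, +6 h) lie between filled blue points (WT, +6 h) and open blue points (WT, -6 h); for CG15093, CG8547, CG4594 and CG7294 all red points lie right of all blue points.

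Ribosome production was the best represented role by name: 25 of the 257 bear a name or synonym of a nucleolar or ribosome biogenesis factor. These proteins transcribe, cut, modify and assemble ribosomal RNA in the nucleolus, as known mostly from yeast and human cells. The grouping was made after the names and values had been seen. As a count with a fixed spelling, names of the kinds Utp, Rrp, Nop, Nol or Noc plus a number, or Polr1 plus a letter, occur in 12 of the 257 genes (4.67%) and in 7 of the 3153 other CG-numbered genes tested (0.222%), 2 of them among the 124 other genes with S at most -1. The spelling was chosen with the names of the 257 in view, so the shares are a description.

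In these 25 genes S ran from -2.01 to -1.11 and P from 0.80 to 1.62. Polr1C and Polr1E encode subunits of RNA polymerase I. Polr1E was at 165 and 194 normalized counts in EcR-RNAi wings at +6 h and 219 and 195 at -6 h, against 79.0 and 77.6 in WT wings at +6 h and 204 and 222 at -6 h, so both EcR-RNAi libraries at +6 h exceeded both WT libraries of that stage. Noc1, whose yeast homologue works in large-subunit maturation, was at 296.5 and 294 (EcR-RNAi, +6 h), 378 and 369 (EcR-RNAi, -6 h), 158 and 168 (WT, +6 h) and 388 and 459.9 (WT, -6 h). Gar1, a protein of the particles that guide pseudouridine formation in ribosomal RNA, was at 515.5 and 487 normalized counts in EcR-RNAi wings at +6 h and 528 and 556 at -6 h, against 237 and 214 in WT wings at +6 h and 588.5 and 559.9 at -6 h. At +6 h the EcR-RNAi counts of Gar1 were more than those of WT in both libraries, and at -6 h the groups lay side by side. NO66, a nucleolar oxygenase gene, stood at 357 and 409 normalized counts in EcR-RNAi wings at +6 h and 428 and 477 at -6 h, against 112 and 143 in WT wings at +6 h and 494 and 458 at -6 h. CG11837, which has the synonym Dim1, a ribosomal RNA methyltransferase in yeast, was at 97.2 and 120.3 (EcR-RNAi, +6 h), 136.5 and 144 (EcR-RNAi, -6 h), 40.3 and 29.4 (WT, +6 h) and 135.5 and 147 (WT, -6 h). CG13096 carries the synonym UTP30 and was at 951 and 1072 normalized counts in EcR-RNAi wings at +6 h and 1261 and 1125 at -6 h, against 461 and 436 in WT wings at +6 h and 1376.5 and 1532 at -6 h. In each of these genes WT at +6 h was the low group, and every library of the other 3 groups lay above it. The place of EcR-RNAi at -6 h is the part of this order that S and P did not use. Genes placed under no role had the same order too, CG9902, CG3808 and CG32409 among them. How often it occurs in the other chosen genes was not counted, so it is not shown to be particular to this role. At -6 h the differences between genotypes ran from -0.29 to 0.40 over the 25 genes with a median of -0.08, and limma called none. The stage change in EcR-RNAi had a median of -0.23. Of the 25, 1 fell, CG7246 with the synonym UTP6 (-0.71, limma padj = 0.0241), named here after its values were seen. Over all genes tested the shares called were 7.51% higher and 3.36% lower at -6 h, and 12.1% higher and 3.88% lower for stage. Whether the 25 differ from these shares was not tested.

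**Figure D4:**
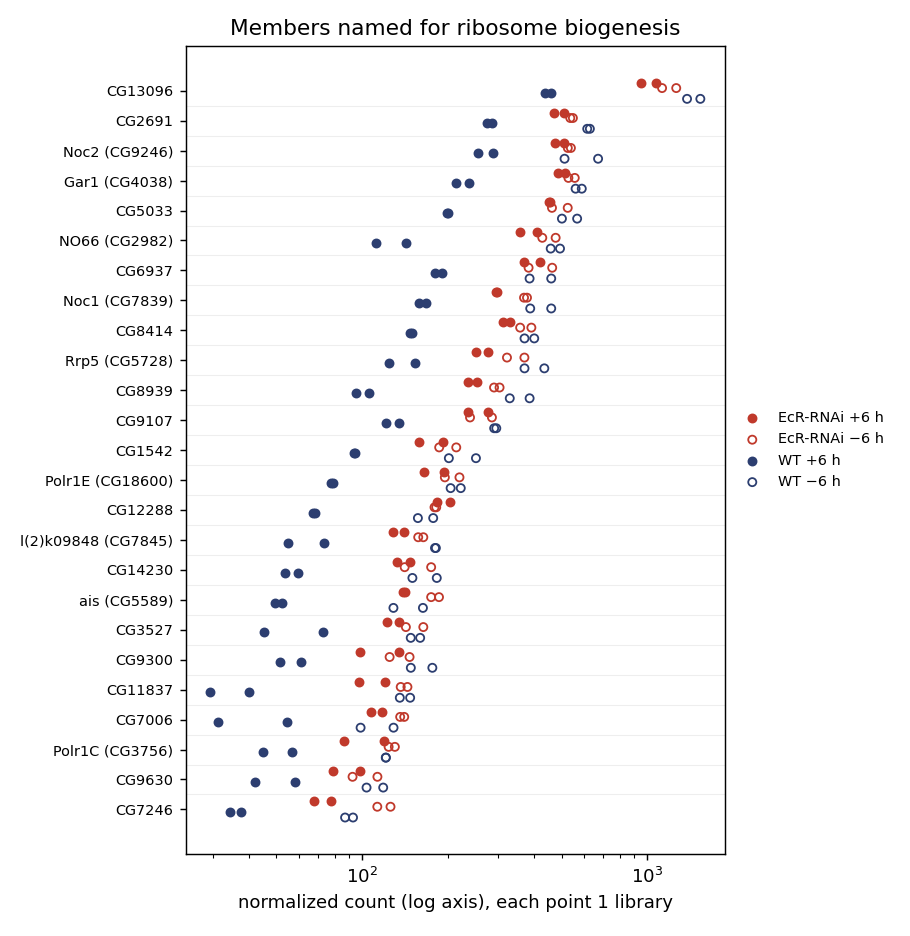
Normalized counts on a log axis for the 25 genes with a name or synonym of a ribosome biogenesis factor, a point for each library. Filled blue points (WT, +6 h) lie left of the 3 other groups in every row, and filled red points (EcR-RNAi, +6 h) lie near the open points of both genotypes at -6 h. On group means, the choice of the genes fixed that filled blue points lie left of filled red and open blue points. Chosen genes outside this role can show the same order, and its share among them was not counted.

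Other enzymes of RNA had similar values. The 13 genes of tRNA and other RNA metabolism had S from -2.10 to -1 and P from 0.82 to 1.86. They include the pseudouridine synthase genes Pus1, Pus7 and Pus10, the dihydrouridine synthase gene Dus3 and the tRNA methyltransferase gene Trmt61. Dus3 was at 83.7 and 84.8 normalized counts in EcR-RNAi wings at +6 h and 108 and 120.4 at -6 h, against 25.4 and 19.9 in WT wings at +6 h and 89.1 and 111 at -6 h. None of the 13 was called at -6 h or for stage in EcR-RNAi, and whether that differs from the shares over all genes was not tested. Another 4 genes with the synonym DmRH, given to RNA helicases of the fly, had S from -1.61 to -1.15 and P from 0.92 to 1.33. One of these is pths, at 615 and 611 (EcR-RNAi, +6 h), 706 and 666 (EcR-RNAi, -6 h), 237 and 251 (WT, +6 h) and 705 and 794 (WT, -6 h). At +6 h the WT libraries are the low ones, and the other 3 groups lie above them without overlap. On group means, the choice set this for WT at -6 h and EcR-RNAi at +6 h. Here too, the share of the other chosen genes with this order was not counted.

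The group of DNA replication and repair held 8 genes, with S from -1.86 to -1.20 and P from 0.97 to 1.32. It includes Kmn2 (S of -1.20), which is named for a kinetochore complex. Without Kmn2 the highest S was that of PolD2 (-1.26). RPA3, a subunit of the single-strand DNA binding protein of replication forks, was at 198 and 237 normalized counts in EcR-RNAi wings at +6 h and 292 and 329 at -6 h, against 96.9 and 77.6 in WT wings at +6 h and 324 and 311 at -6 h. The germ cell and DNA repair gene Gcna was at 349 and 315 normalized counts in EcR-RNAi wings at +6 h and 471 and 539.7 at -6 h, against 165.5 and 126 in WT wings at +6 h and 497.5 and 440.1 at -6 h. These 2 fell with stage in EcR-RNAi (-0.52 ± 0.15, limma padj = 0.0424 for RPA3 and -0.60 ± 0.15, limma padj = 0.019 for Gcna). The call of RPA3 ended in 9 of 18 alternatives, at padj up to 0.289, including each fit with 1 EcR-RNAi library (-0.39 to -0.64) or either WT -6 h library (-0.52) left out. That of Gcna ended in 4, at padj up to 0.145, including the fits with EcR-RNAi -6 h replicate 2 (-0.50) or EcR-RNAi +6 h replicate 1 (-0.68) or 2 (-0.53) left out. PolD2, a subunit of DNA polymerase delta, had S of -1.26 and P of 1.18. Of 37 cell cycle and DNA replication genes with names in the table (a list chosen with earlier results known), 0 rose and 8 fell with stage in EcR-RNAi, with a median of -0.31. At -6 h 0 were higher and 2 lower in EcR-RNAi, with a median of -0.11. Over all genes tested, 12.1% rose and 3.88% fell with stage, and 7.51% were higher and 3.36% lower at -6 h.

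Nuclear pore genes numbered 3. Elys, which starts pore assembly on chromatin, was at 651 and 649 normalized counts in EcR-RNAi wings at +6 h and 868.5 and 866 at -6 h, against 380.3 and 337 in WT wings at +6 h and 936 and 933 at -6 h. Nup188, a scaffold nucleoporin, was at 416 and 376 (EcR-RNAi, +6 h), 575 and 520.0 (EcR-RNAi, -6 h), 192 and 252 (WT, +6 h) and 614 and 639 (WT, -6 h). Elys (-0.42 ± 0.10, limma padj = 0.0163) and Nup188 (-0.47 ± 0.14, limma padj = 0.0415) fell in EcR-RNAi with little margin. The call of Elys ended without any 1 of the 4 EcR-RNAi libraries (-0.41 to -0.42, padj from 0.0518 to 0.103), and that of Nup188 ended in 9 of 18 alternatives, at padj up to 0.231, among them the same 4 fits (-0.39 to -0.54) and those with either WT -6 h library left out (-0.47). Aladin, the third, had S of -1.25 and P of 0.81. Mitochondrial names covered 8 genes, with S from -3.80 to -1.01. Sqor, a sulfide quinone oxidoreductase gene, was at 43.1 and 69.0 normalized counts in EcR-RNAi wings at +6 h and 117 and 134 at -6 h, against 17.9 and 10.5 in WT wings at +6 h and 177 and 236 at -6 h. It fell with stage in EcR-RNAi (-1.19 ± 0.30, limma padj = 0.0199), a call that ended without replicate 1 of EcR-RNAi at +6 h (-0.85, padj = 0.182) and without replicate 2 at -6 h (-1.09, padj = 0.0713). Prps, which makes the sugar phosphate from which nucleotides are built, was at 669 and 738 normalized counts in EcR-RNAi wings at +6 h and 1549.8 and 905 at -6 h, against 259.5 and 222 in WT wings at +6 h and 1847 and 1943 at -6 h. In Prps the replicates of EcR-RNAi at -6 h stand apart, and neither limma test called it. The authors' deposited comparisons had Prps lower in EcR-RNAi at -6 h (their adjusted p = 0.0397). They also had it lower at +6 h than at -6 h in EcR-RNAi (their adjusted p = 0.0028). Chromatin and zinc finger proteins were named by 4 genes, with S from -1.43 to -1.19, and serine proteases, by synonym, by 3, with S from -1.80 to -1.18. Neither group held a call. The 183 genes placed under no role by name had medians of -1.52 for S and 1.21 for P. They include some genes with RefSeq names, such as Prps and Nph. The 183 held all 12 calls at -6 h, and 22 of the 30 genes that fell with stage in EcR-RNAi. They make up most of the 257 genes, and whether they held more calls than their share was not tested.

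Of the 10 genes with the highest P, 5 had at most 1 read over both WT libraries at +6 h (CG7294, CG13046, CG4594, CG13064 and CG14082), and some of the 10 lie together in the genome. CG14082 was at 18.4 and 17.8 (EcR-RNAi, +6 h), 24.4 and 13.9 (EcR-RNAi, -6 h), 0 and 1.05 (WT, +6 h) and 11.6 and 5.12 (WT, -6 h), a ratio of 29.3 for EcR-RNAi over WT at +6 h (95% counting interval 4.91 to 1194). Of the 257 genes, 28 (10.9%) are next to another of the 257 in the order of protein-coding genes in RefSeq (Release 6 of the fly genome), and of the 3153 other CG-numbered genes tested, 137 (4.35%) are next to one of the 257. One stretch, whose ends were set after the values were seen, runs over 29 protein-coding genes from CG13053 to CG13041 and holds 7 of the 257. Of its 29 genes, 8 reach a mean of 10 normalized counts. The other 21 have means of at most 3.69.

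In this stretch CG34247 had the highest P of all, 7.78. It was at 1087.5 and 1105 normalized counts in EcR-RNAi wings at +6 h and 68.2 and 324 at -6 h, against 2.98 and 5.25 in WT wings at +6 h and 10.7 and 8.33 at -6 h. The 4 groups do not overlap, and both EcR-RNAi groups lie above both WT groups. The difference at -6 h was 3.85 ± 0.71, limma padj = 0.0242, and the change with stage in EcR-RNAi was 2.87 ± 0.71, limma padj = 0.0464. At -6 h its replicates in EcR-RNAi were far apart. Replicate 2 of that pair was the higher one in all 7 genes of the stretch, though by little in CG13044 (406.5 and 415) and CG13041 (63.4 and 64.7). It was also the higher one in the summed fat body markers (though not in Cg25C), and the lower one in the summed gut markers. The -6 h call ended in 6 of 18 alternatives, at padj up to 0.174, among them the fits with WT -6 h replicate 1 (4.01) or 2 (3.69) or either WT +6 h library (3.85) left out. The stage call ended in 9, at padj up to 0.258. These include the fits without any 1 of the 4 WT libraries (2.87) and without either EcR-RNAi library at +6 h (2.88 and 2.86). Left out in turn, replicates 1 and 2 of the EcR-RNAi -6 h pair gave a -6 h difference of 4.96 and 2.73 and a stage change of 1.75 and 3.99. Its neighbour CG13053 was at 674 and 798 normalized counts in EcR-RNAi wings at +6 h and 270.0 and 575 at -6 h, against 29.8 and 23.1 in WT wings at +6 h and 166.5 and 92.9 at -6 h. Again both EcR-RNAi groups exceeded both WT groups, with 1.66 ± 0.43, limma padj = 0.0704 at -6 h, which did not pass. The authors' deposited comparison had CG13053 higher in EcR-RNAi at -6 h (their adjusted p = 2.48e-06).

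CG13045 and CG13046 are next to each other. CG13045 was at 77.5 and 96.7 normalized counts in EcR-RNAi wings at +6 h and 40.9 and 66.3 at -6 h, against 5.96 and 4.20 in WT wings at +6 h and 19.4 and 11.5 at -6 h, with a difference at -6 h of 1.73 ± 0.37, limma padj = 0.0122. That call ended without replicate 2 of WT at -6 h (1.38, padj = 0.106) and without replicate 2 of EcR-RNAi at -6 h (1.39, padj = 0.111). CG13046 was at 39.4 and 55.2 (EcR-RNAi, +6 h), 9.75 and 18.0 (EcR-RNAi, -6 h), 1.49 and 0 (WT, +6 h) and 11.6 and 10.9 (WT, -6 h), and at +6 h EcR-RNAi over WT was 78.2-fold (95% counting interval 13.7 to 3125), on 1 read in WT. In both genes the EcR-RNAi libraries at +6 h are the highest of the 8. CG13064 had no read in WT at +6 h, and at that stage EcR-RNAi was at least 12.4-fold higher. Its values were 14.8 and 29.6 normalized counts in EcR-RNAi wings at +6 h and 12.7 and 24.6 at -6 h, against 0 and 0 in WT wings at +6 h and 13.6 and 30.1 at -6 h. CG13041 was at 56.6 and 80.9 normalized counts in EcR-RNAi wings at +6 h and 63.4 and 64.7 at -6 h, against 13.4 and 4.20 in WT wings at +6 h and 47.4 and 33.3 at -6 h. In CG13064 and CG13041 both WT libraries at +6 h are the lowest of the 8, and in CG13041 the 4 EcR-RNAi libraries also lie above both WT libraries at -6 h. CG13044, described above, is the one of the 7 that fell with stage in EcR-RNAi. Whether reads are shared between similar genes of this stretch was not tested.

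**Figure D5:**
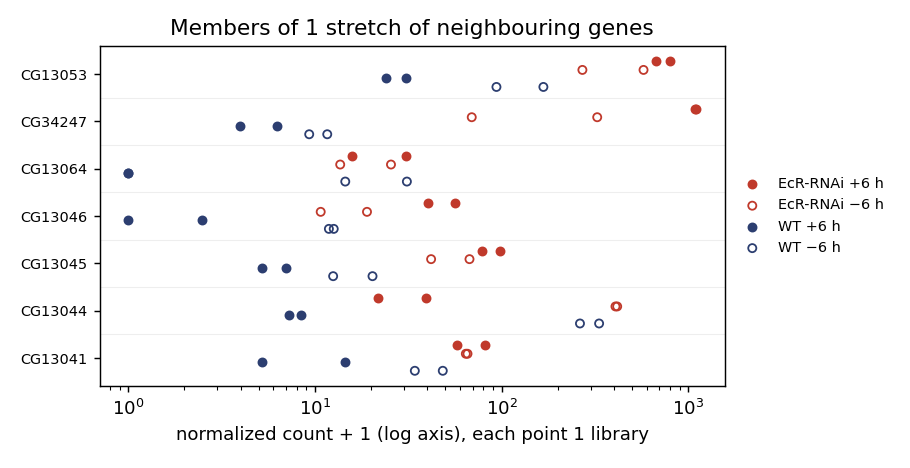
Normalized counts + 1 on a log axis for the 7 of the 257 genes in the stretch from CG13053 to CG13041, in genome order from top to bottom, a point for each library. In CG34247, CG13053, CG13045 and CG13046 the filled red points (EcR-RNAi, +6 h) lie to the right of all blue points, and in CG13044 they lie left of all open points.

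Pairs of neighbours elsewhere varied in how close their values were. CG13096 and CG13097 had S of -1.69 and -1.52, and P of 1.17 and 1.23. In contrast, CG11275 and CG11170 had S of -3.05 and -1.51, and P of 2.17 and 1.08. CG31125 and CG6695 had S of -2.14 and -1.15, and P of 2.11 and 0.81. CG17544 was at 166 and 141 normalized counts in EcR-RNAi wings at +6 h and 341 and 347 at -6 h, against 50.7 and 51.4 in WT wings at +6 h and 308 and 299.8 at -6 h, and fell with stage in EcR-RNAi (-1.16 ± 0.14, limma padj = 0.000176, in all 18 alternatives). CG17549, beside it, was at 146 and 177 (EcR-RNAi, +6 h), 173.5 and 234 (EcR-RNAi, -6 h), 46.2 and 64.0 (WT, +6 h) and 116 and 142 (WT, -6 h). Its stage change did not pass (-0.32 ± 0.21, limma padj = 0.355). In RefSeq, 143 of the 257 genes overlap another gene, and the sources used here do not say whether reads were counted by strand, so their counts are uncertain. Among the genes described above these are CG13044, CG15353, Sqor, CG42514, CG11275, Prps, CG15093, CG14082, CG17544, CG13041, CG13024, CG31125, Vajk3, RPA3, Vajk2, Pus10, pths, CG11170, Pus7, Trmt61, Gar1, Nph, PolD2, Aladin, Polr1C, Kmn2, Pus1, CG6695 and Sf3b3.

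Among genes of any name outside the 257, the 5 whose 8 log2 values followed the mean profile of the 257 most closely were Nopp140 (Pearson r = 0.998), Pen (0.997), Nlp (0.997), CG1234 (0.996) and Jheh2 (0.996), over 8 libraries in 4 groups. Nopp140 encodes a nucleolar phosphoprotein, Pen an importin alpha, Nlp a nucleoplasmin-like histone chaperone and Jheh2 a juvenile hormone epoxide hydrolase. Nopp140 was at 1636 and 1709 normalized counts in EcR-RNAi wings at +6 h and 1837 and 1890.1 at -6 h, against 765 and 828 in WT wings at +6 h and 1915 and 1939 at -6 h. Pen was at 4041 and 4388 normalized counts in EcR-RNAi wings at +6 h and 5131 and 5235 at -6 h, against 1618 and 1707 in WT wings at +6 h and 5590.2 and 5023 at -6 h. In both, WT at +6 h is the low group and the 3 other groups lie above it. The mean profile itself, centred per gene, was 0.17 and 0.26 (EcR-RNAi, +6 h), 0.51 and 0.49 (EcR-RNAi, -6 h), -1.22 and -1.18 (WT, +6 h) and 0.48 and 0.49 (WT, -6 h).

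For comparison, of 22 ecdysone response genes tested (a list chosen with earlier results known), 4 were higher and 9 lower in EcR-RNAi at -6 h, with a median of -0.21. With stage in EcR-RNAi, 11 rose and 1 fell, with a median of 0.37. EcR, the target of the RNAi, is in this list, among the 9 that were lower and the 11 that rose. Over all genes tested, 7.51% were higher and 3.36% lower at -6 h. With stage in EcR-RNAi, 12.1% rose and 3.88% fell.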

How the data were processed

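Normalized counts in the deposited RNA table are a signal, which the authors obtained as gene counts over 1 size factor for each library (judged from the deposited values). Per the submitters' processing notes, STAR 2.5.2b, SAMtools 1.3.1, Subread 1.24.2, DESeq2 1.14.1 and build dm3 were used, with roles and settings not given in the sources used here. The authors' deposited table of comparisons gives log2 fold changes (WT over EcR-RNAi, -6 h over +6 h, so the direction was turned for counts of higher and lower) and adjusted p-values. In 100% of values a whole number of reads came back, within 0.1 read.

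On log2(normalized count + 1), limma 3.58.1 (trend and robust settings, R 4.3.3) fitted 4 group means to the 8 libraries for the 7775 genes with a mean of 10 or more. Values after ± are standard errors. The scale understates changes of low counts. Where a group had 0 reads, a fold uses a floor of 3 reads over the group, and with 1 to 3 reads a ratio of depth-scaled reads is given with an exact Clopper-Pearson interval (95%), for counting error only. S and P medians were the same with bounds in place of such values. Alternatives included edgeR 4.0.16 and DESeq2 1.42.0 on recovered reads. Genes were matched to RefSeq by locus tag (257 of 257). They and the lists were chosen with earlier results of these data known. Named genes were drawn from those with the lowest S (10), highest P (10) or largest means (8), the called genes with the lowest adjusted p (up to 10 for each test and direction), genes at the thresholds, 20 genes with RefSeq names, neighbours and the 5 most alike. Other called genes are counted and most are not named. Further role examples (Polr1E, CG11837, Dus3, PolD2, Aladin, Ae2, Prip) were chosen after the values were seen. EcR peaks were not used here, since gene positions in dm3 were not used.

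Of the other marker lists, summed normalized counts ran over the 8 libraries from 3921 to 8099 for myoblast, 206 to 773 for hemocyte, 7835 to 18320 for trachea, 405 to 981 for neuron and glia, 2.92 to 118 for salivary gland and 792 to 1709 for peripodial genes.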

Additional observations from a re-analysis of the deposited data

Results flagged for a closer look

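Of the 257 genes, 2 were called higher at +6 h than at -6 h in EcR-RNAi while both WT libraries stood lower at +6 h than at -6 h. They are CG34247 and Vajk2. In CG34247 the decrease in WT rests on few reads, with 2.98 and 5.25 normalized counts at +6 h and 10.7 and 8.33 at -6 h. Its S was -1.06, near the threshold. The difference between the genotypes in this change was not tested, since the choice of the genes used it.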

How the results depend on the processing

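The number of genes meeting the criteria stayed within 1.5 times of 257 in every alternative tried, from 201 (5 added before log2) to 327 (upper-quartile scaling), and from 240 to 282 with 1 library left out. Of the 257, 226 remained with quantile scaling and 205 without replicate 1 of WT at +6 h. Those scalings shifted S of all genes by -0.17 (upper-quartile) and -0.21 (quantile). For the -6 h comparison, genes of the 257 called lower numbered 6 with a fit to just the comparison's 4 libraries, 6 with DESeq2 and 5 with edgeR, against 3. With 1 library left out, 3 to 11 were higher and 2 to 6 lower, among 354 to 697 and 100 to 562 over all genes (584 and 261 with all libraries). For the stage change in EcR-RNAi, genes called higher numbered 4 with just the comparison's 4 libraries, against 2. Genes called lower numbered 53 of the 257 and 606 of all genes with upper-quartile scaling, 59 and 908 with quantile scaling, against 30 and 302, and 182 of all genes with DESeq2. With 1 library left out, 0 to 4 were higher and 13 to 37 lower, among 506 to 967 and 96 to 318 over all genes (943 and 302 with all libraries). Where a group was left with 1 library, that library was assumed to vary like the others. The cause of these shifts was not tested. No call of a named gene reversed its direction in any of the 18 alternatives. With the replicate block, 11 were higher and 3 lower at -6 h and 2 higher and 26 lower for stage. Replicate deviations correlated at -0.05 and 0.13 in these comparisons, so replicate numbers were not taken to pair libraries. Peaks near the genes, at any distance or threshold, were not run.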
